A study of Mus musculus with 6 samples.

Results

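The genes described here are 39 interferon response and major histocompatibility complex (MHC) class I genes, measured by RNA sequencing in mouse quadriceps, the large muscle of the front of the thigh. They were taken by gene symbol from a table of 23314 genes, whatever their level, and they fall into 4 sensors of foreign nucleic acid, 5 transcription factors, 17 antiviral effectors, 6 interferon-inducible GTPases, 6 genes of MHC class I presentation and 1 pseudogene. The 3 K15SKO libraries came from mice of genotype Myogenin-Cre/+;K15F/F, in which Cre recombinase from the promoter of Myogenin, a gene of differentiating skeletal muscle, acts on a floxed Klf15. The 3 MyoCre libraries came from Myogenin-Cre/+ mice, so both groups carried the Cre transgene, and all mice were 2 months old. Klf15 encodes a zinc finger transcription factor known in muscle for its part in lipid and amino acid metabolism, and the comparison asks how muscle expression differs when it is deleted in muscle cells. Myogenin-Cre is not expected to act in the blood vessel, immune or fat cells of the muscle, and these contribute to the RNA of a whole muscle. The design text gives n = 4, whereas 3 libraries a group were analysed here, and the labels do not say that each library is a separate mouse, so the spread between libraries may be partly technical.

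Interferons are secreted proteins that bind receptors on nearly every cell type and, through JAK kinases and STAT and IRF transcription factors, switch on a large set of interferon-stimulated genes. Their products detect viral RNA and DNA, block viral replication, and load peptides from inside the cell onto MHC class I molecules for display to T cells. Resting muscle fibres are known for low levels of MHC class I, and the set is known to be high in inflamed muscle. Macrophages and other immune cells express many of these genes at rest, and a whole-muscle library cannot tell apart more cells of such a type from more RNA per cell.

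The 6 libraries differed among themselves in ways that touch every value below. Klf15 was at 2.22, 21.7 and 5.32 FPKM in K15SKO 1 to 3 versus 35.2, 28.4 and 30.5 FPKM in MyoCre 1 to 3, where FPKM is a level scaled by transcript length and library size. Its log2 difference was -2.06 ± 0.66 (SE), with an adjusted p of 0.273 by limma, and K15SKO 2 stood nearest to the MyoCre libraries. Summed over 6 muscle fibre genes, the level was 5105 to 7727 FPKM in K15SKO and 6064 to 8136 FPKM in MyoCre libraries, as the tissue label says. Liver genes, which mark another tissue, summed to 7080 FPKM over 16 genes in K15SKO 2 and to between 24.6 and 94.2 FPKM in the other libraries. Liver genes were also above every MyoCre library for 14 of the 16 genes in K15SKO 1 and 13 in K15SKO 3. The shares over all rows of the table were 36.6% and 29.9%. Alb (albumin) was at 21.1, 2203 and 4.36 FPKM in K15SKO 1 to 3 versus 1.13, 0.298 and 0.311 FPKM in MyoCre 1 to 3. Relative depth, read from the steps of values under 0.1 FPKM and set to 1 in MyoCre 1, was 0.75, 1.57 and 0.91 in K15SKO 1 to 3 and 1, 1.09 and 1.31 in MyoCre 1 to 3. The absolute depth is unknown.

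The interferon genes did not behave as a block across the 3 K15SKO libraries. They were mostly high in K15SKO 1, somewhat less high in K15SKO 2, and at or below the MyoCre level in K15SKO 3. The median ratio to the MyoCre mean over all 39 genes was 1.55, 1.53 and 0.840 in K15SKO 1 to 3 versus 0.942, 1.09 and 0.948 in MyoCre 1 to 3. Only the pseudogene BC023105 and the GTPase gene Gbp7 were lower in all 3 K15SKO than in all 3 MyoCre libraries, and none of the 30 genes tested passed the threshold of the test across all genes.

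**Figure D1:**
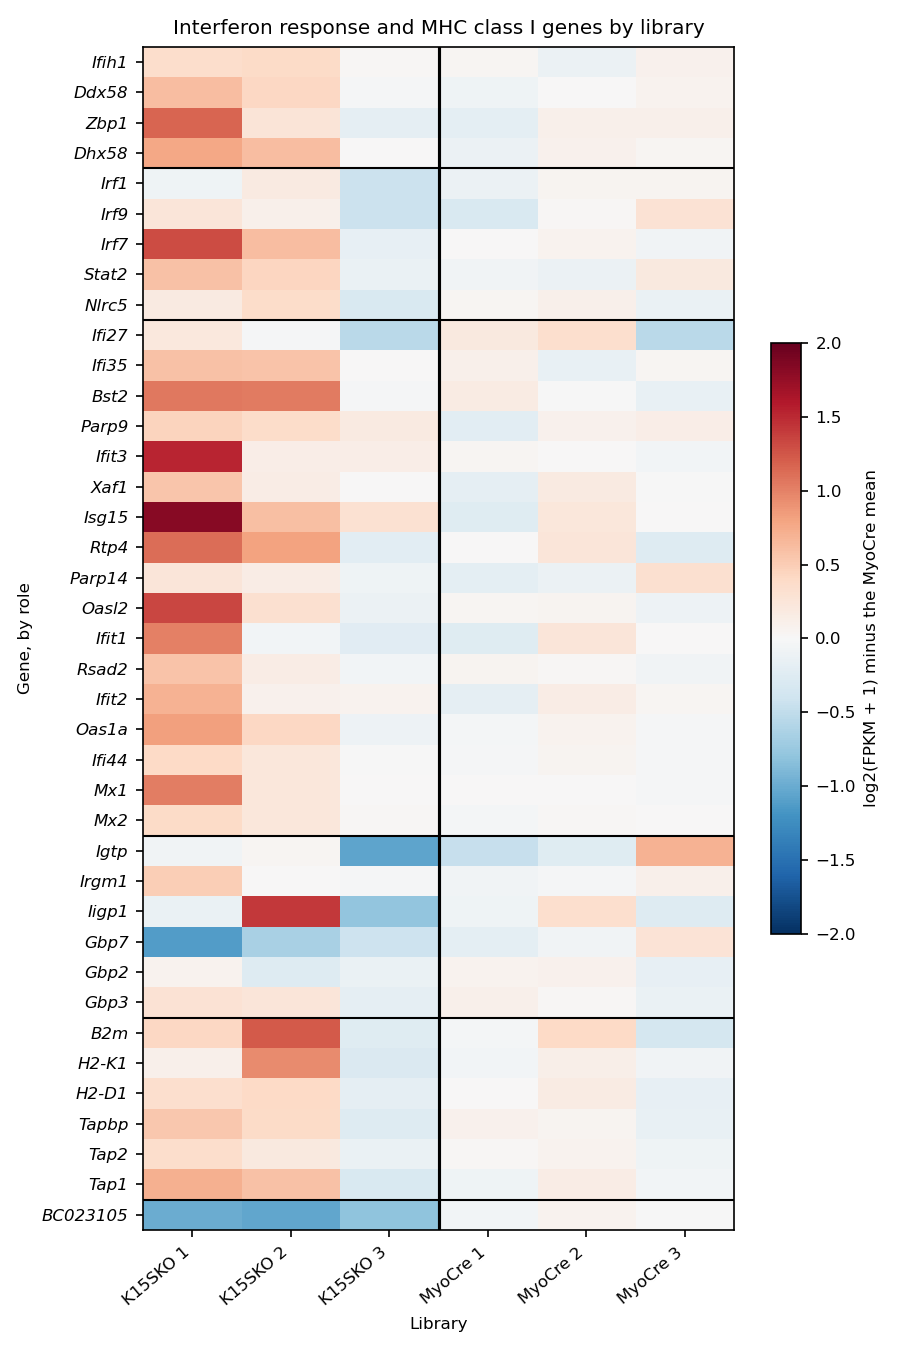
Each row is 1 of the 39 genes, ordered by role, and each column is a library, with the 3 K15SKO libraries left of the 3 MyoCre libraries. Colour gives log2(FPKM + 1) minus the MyoCre mean of that gene (red higher, blue lower), and most red cells lie in the columns of K15SKO 1 and K15SKO 2.

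Of the 39 genes, 30 had a mean of at least 1 FPKM over the 6 libraries and entered the test, limma on log2(FPKM + 1) over 11607 genes with Benjamini-Hochberg adjustment. The other 9 (Ddx58, Zbp1, Dhx58, Nlrc5, Ifit2, Oas1a, Ifi44, Mx1 and Mx2) lay under that level, and none of the 39 was at 0 in any library. With limma, 0 of the 30 passed an adjusted p of 0.05 in either direction, where 0.0172% of all genes tested passed as higher and 0.0345% as lower in K15SKO. At an unadjusted p under 0.05, limma found 0 of the 30 higher, beside 8.43% of all genes, and 2 lower, beside 8.12% of all genes. The difference was positive for 23 of the 30 and negative for 7, with a median of 0.23 on the log2 scale, and the median over all genes tested was -0.02. Over all 11607 genes tested, the difference was positive for 5576.

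The spread between K15SKO libraries was large against these differences. When K15SKO 3 was left out, 8 of the 30 genes passed by limma: Tapbp, Ifi35, Bst2, Irf7, Rtp4 and Tap1 as higher, and BC023105 and Gbp7 as lower. That fit called 10.8% of all genes tested higher and 12.8% lower, 2743 genes in place of 6, so the rise in calls was not limited to these genes. Leaving out any other library let no member pass. With array weights, which let each library count by its own spread, Ifi35 and Bst2 passed as higher, beside 10.7% of all genes tested, and BC023105 and Gbp7 as lower, beside 9.94%.

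Counting by library shows where the values lay. K15SKO 1 was above every MyoCre library for 29 of the 39 genes, K15SKO 2 for 28 and K15SKO 3 for 4, where the shares over all rows of the table were 36.6%, 36.8% and 29.9%. Of the 30 tested, the counts were 20, 20 and 3, where the shares over all genes tested were 37.2%, 33.4% and 36.1%. K15SKO 3 was instead below every MyoCre library for 18 of the 39 and 16 of the 30 tested, beside 20.6% of all rows and 25.3% of all genes tested. Among the 30 tested, 14 were above every MyoCre library in K15SKO 1 and K15SKO 2 but not in K15SKO 3, beside 13.4% of all genes tested, and over all members the count was 21, beside 14% of all rows. The level was over 2 times the MyoCre mean for 16 of the 39 genes in K15SKO 1, for 10 in K15SKO 2 and for 0 in K15SKO 3, beside 18.8%, 21% and 8.67% of all rows. Many rows of the table are of low level, and among the 30 genes tested these counts were 8, 5 and 0, beside 8.64%, 7.64% and 2.07% of all genes tested. The highest of the 6 values was in K15SKO 1 for 25 of the 39, in K15SKO 2 for 7 and in K15SKO 3 for none, beside 25.2%, 19.4% and 17.4% of all rows. Among the 30 tested, the highest value was in these libraries for 17, 6 and 0 genes, beside 24.3%, 14.2% and 21.2% of all genes tested.

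For 6 of the 39 genes the ranges of K15SKO and MyoCre libraries were separate. Parp9, Ifit3, Isg15 and Mx2 were higher in every K15SKO than in every MyoCre library, where 10.1% of all rows of the table were, and 13.4% of all genes tested. BC023105 and Gbp7 were lower in every K15SKO library, where 7.68% of all rows and 11.3% of all genes tested were. Neither count is far from its background share, and for Ifit3, Mx2 and Gbp7 the ranges overlapped once near-identical or overlapping genes were added. Parp9 overlaps Dtx3l, which was lower in every K15SKO library, and their sum was not made.

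Many interferon-stimulated genes are known to be switched on through a promoter element, the interferon-stimulated response element, whose core is taken here as GAAA, 2 bases of any kind and GAAA (TTTC, 2 bases and TTTC on the other strand). A search of both strands, from 250 bases before to 50 bases after the start of each gene in RefSeq (GRCm38.p6), found this core in the promoters of 15 of the 27 members with an entry, and in 3.44% of all 32851 promoters. A second core, TTCNNNGAA, which reads alike on both strands and is that of the gamma-activated site, was found for 7 of the 27 and in 8.3% of all promoters. The units differ: the 27 members have 32 promoters and were counted by gene, with a match in any promoter. The shares of all promoters count each promoter singly. In 4 members both cores were present, and in 1 their letters overlapped. The first core was present in 6 of the 11 members with an entry that were over 2 times the MyoCre mean in K15SKO 1, and in 9 of the other 16, so its presence did not separate the genes by their level in that library. The stretches below are shown because they span genes with different patterns: 6 that were over 2 times the MyoCre mean in K15SKO 1, B2m, which was highest in K15SKO 2, and Gbp7, which was lower in every K15SKO library. Capitals mark every match to the first core in a stretch, as 1 longer run where matches overlap, and each sequence reads 5′ to 3′ along the strand of its gene. They lie at chr4:156200862-156200921 for Isg15 and chr4:40239789-40239848 for Ddx58 (minus strand), chr19:34583348-34583407 for Ifit3 and chr19:34640760-34640819 for Ifit1 (plus strand), chr5:120907511-120907570 for Oas1a and chr8:71537568-71537627 for Bst2 (minus strand), and chr2:122147523-122147582 for B2m and chr3:142530258-142530317 for Gbp7 (plus strand).
Isg15: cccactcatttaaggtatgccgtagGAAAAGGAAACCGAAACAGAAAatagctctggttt
Ifit3: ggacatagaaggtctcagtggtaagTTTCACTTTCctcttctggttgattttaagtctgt
Ifit1: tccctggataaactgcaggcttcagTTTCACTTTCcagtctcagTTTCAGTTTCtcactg
Oas1a: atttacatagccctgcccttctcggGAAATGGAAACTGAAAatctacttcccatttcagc
Bst2: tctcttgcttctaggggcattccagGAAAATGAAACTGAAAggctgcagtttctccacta
Ddx58: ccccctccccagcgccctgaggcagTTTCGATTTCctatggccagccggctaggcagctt
B2m: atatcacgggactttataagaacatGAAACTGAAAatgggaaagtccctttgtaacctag
Gbp7: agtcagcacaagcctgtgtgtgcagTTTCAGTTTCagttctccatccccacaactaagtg
Isg15 held 3 matches, all in its stretch, and Ifit1, Oas1a and Bst2 held 2 each, also shown. Ifit3 held 2, of which 1 is shown, and Ddx58, B2m and Gbp7 held 1 each. The capitals begin 78 bases before the gene start in Isg15, 156 in Ifit3, 104 in Ifit1, 20 in Oas1a, 130 in Bst2, 139 in B2m and 53 in Gbp7. In Ddx58 they begin 2 bases after it. A match is a run of letters and not a measured binding site.

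The sensors Ddx58 (RIG-I) and Ifih1 (MDA5) recognise viral RNA in the cytoplasm, Dhx58 (LGP2) modulates both, and Zbp1 binds left-handed Z-form nucleic acid and can trigger cell death. Ifih1, the only sensor tested, was at 1.63, 1.67 and 1.09 FPKM in K15SKO 1 to 3, compared with 1.11, 0.893 and 1.18 FPKM in MyoCre 1 to 3, a log2 difference of 0.25 ± 0.17 (SE; adjusted p = 0.428 by limma). K15SKO 1 and K15SKO 2 were above all MyoCre libraries for each of the 4 sensors, and K15SKO 3 for none. Ddx58 was at 1.67, 1.30 and 0.706 FPKM in K15SKO 1 to 3 versus 0.640, 0.752 and 0.819 FPKM in MyoCre 1 to 3. Dhx58 was lower in level, with 1.11, 0.894 and 0.250 FPKM in K15SKO 1 to 3 versus 0.139, 0.313 and 0.272 FPKM in MyoCre 1 to 3. Zbp1 was at 1.82, 0.508 and 0.114 FPKM in K15SKO 1 to 3, compared with 0.0930, 0.343 and 0.351 FPKM in MyoCre 1 to 3, so that K15SKO 1 was 6.92 times the MyoCre mean and K15SKO 3 was 0.436 times it.

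Irf7, a transcription factor that drives type I interferon production, had the largest log2 difference of the 4 transcription factors tested. It was at 4.97, 2.72 and 1.16 FPKM in K15SKO 1 to 3 versus 1.44, 1.52 and 1.29 FPKM in MyoCre 1 to 3. K15SKO 1 and K15SKO 2 were above the MyoCre range and K15SKO 3 was below it, and the log2 difference of 0.59 ± 0.35 (SE) had an adjusted p of 0.399 by limma. Stat2, a signal transducer of type I interferon, was at 2.70, 2.32 and 1.24 FPKM in K15SKO 1 to 3, with 1.27 to 1.82 FPKM in MyoCre libraries. Its partner Irf9, the DNA-binding part of the same complex, was at 3.35, 2.93 and 1.71 FPKM in K15SKO 1 to 3 versus 1.97, 2.71 and 3.47 FPKM in MyoCre 1 to 3, and the groups overlapped widely. Irf1, a mediator of interferon-gamma, was at 3.87, 4.83 and 2.82 FPKM in K15SKO 1 to 3, with 3.75 to 4.38 FPKM in MyoCre libraries. Nlrc5, the transactivator of the MHC class I genes, was at 0.632, 0.853 and 0.162 FPKM in K15SKO 1 to 3, compared with 0.480, 0.538 and 0.310 FPKM in MyoCre 1 to 3. All 5 transcription factors were below every MyoCre library in K15SKO 3.

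Of the 17 antiviral effectors, 15 had their highest value in K15SKO 1. Their summed level was 115, 88.6 and 57.4 FPKM in K15SKO 1 to 3 versus 76.3, 82.3 and 57.0 FPKM in MyoCre 1 to 3. The median log2 difference of the 12 tested was 0.36. The most abundant, Ifi27, an interferon-induced membrane protein, did not separate the groups, with 48.0, 40.3 and 28.1 FPKM in K15SKO 1 to 3 versus 47.2, 52.3 and 28.1 FPKM in MyoCre 1 to 3. Bst2 (tetherin), which holds budding virus particles on the cell surface, was at 14.7, 14.4 and 6.40 FPKM in K15SKO 1 to 3, compared with 7.40, 6.48 and 5.78 FPKM in MyoCre 1 to 3. K15SKO 1 and K15SKO 2 were about alike and above all MyoCre libraries, K15SKO 3 lay among them, and the log2 difference was 0.69 ± 0.30 (SE; adjusted p = 0.310 by limma). Ifi35, an interferon-induced leucine zipper protein, was at 15, 14.9 and 9.76 FPKM in K15SKO 1 to 3 versus 10.5, 8.66 and 9.99 FPKM in MyoCre 1 to 3, with an adjusted p of 0.319 by limma.

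Parp9, a member of the poly(ADP-ribose) polymerase (PARP) family that works with the ubiquitin ligase Dtx3l, was above the MyoCre range in every K15SKO library. It was at 3.78, 3.52 and 2.99 FPKM in K15SKO 1 to 3 versus 2.03, 2.73 and 2.83 FPKM in MyoCre 1 to 3, a log2 difference of 0.33 ± 0.14 (SE; adjusted p = 0.303 by limma). Its gene overlaps Dtx3l on the opposite strand, and no source used here says whether the counting used strand. Dtx3l was at 1.68, 2.06 and 1.62 FPKM in K15SKO 1 to 3 versus 2.14, 2.19 and 2.76 FPKM in MyoCre 1 to 3. It was lower in every K15SKO than in every MyoCre library, and its sum with Parp9 was not made. Ifit3, an RNA-binding tetratricopeptide protein, was at 6.16, 1.72 and 1.73 FPKM in K15SKO 1 to 3, compared with 1.55, 1.49 and 1.39 FPKM in MyoCre 1 to 3. Here 1 library was far above the rest, and the log2 difference was 0.60 ± 0.38 (SE; adjusted p = 0.414 by limma), or 0.14 without K15SKO 1. Ifit3 is 97.8% identical to its neighbour Ifit3b over 1700 bases, so their reads may have been split. Summed over both genes, the level was 7.60, 3.66 and 4.12 FPKM in K15SKO 1 to 3 versus 4.06, 4.32 and 4.49 FPKM in MyoCre 1 to 3, and the groups overlapped.

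Several effectors of lower level stood out in K15SKO 1, and they are given in full after their values were seen. Isg15, a ubiquitin-like protein attached to other proteins and secreted, was at 5.98, 1.99 and 1.43 FPKM in K15SKO 1 to 3 versus 0.670, 1.32 and 0.985 FPKM in MyoCre 1 to 3. Every K15SKO library was above every MyoCre library, but K15SKO 1 held most of the difference: the log2 difference was 0.91 ± 0.40 (SE; adjusted p = 0.310 by limma), or 0.45 without K15SKO 1. The GTPase Mx1, an inhibitor of influenza viruses, was at 1.09, 0.208 and 0.0333 FPKM in K15SKO 1 to 3, compared with 0.0422, 0.0404 and 0.0111 FPKM in MyoCre 1 to 3. K15SKO 1 was 34.9 times and K15SKO 2 was 6.67 times the MyoCre mean, at levels far under 1 FPKM in every library but K15SKO 1. Mx2, annotated as a polymorphic pseudogene and 94.8% identical to Mx1 over 920 bases, was at 0.401, 0.257 and 0.0915 FPKM in K15SKO 1 to 3 versus 0.0441, 0.0913 and 0.0846 FPKM in MyoCre 1 to 3. Summed over Mx1 and Mx2, K15SKO 3 at 0.125 FPKM lay below MyoCre 2 at 0.132 FPKM. Oas1a, which makes the 2-5A signal that activates RNase L, was at 1.04, 0.543 and 0.0778 FPKM in K15SKO 1 to 3 versus 0.131, 0.211 and 0.138 FPKM in MyoCre 1 to 3. The same order of libraries held when Oas1a was summed with Oas1g, its 97.6% identical copy.

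The other effectors followed K15SKO 1 to differing degrees. Relative to the MyoCre mean, Oasl2 was at 4.68, 1.58 and 0.800 in K15SKO 1 to 3, Ifit1 at 3.15, 0.892 and 0.679, and Ifit2 at 2.55, 1.15 and 1.11. Ifit1, Ifit2 and Ifit3 lie side by side on chromosome 19, and in all 3 the excess was large in K15SKO 1 and small or absent in K15SKO 2. Rtp4, a chaperone-like protein that binds viral RNA, had ratios of 2.99, 2.26 and 0.747, and Ifi44 of 3.27, 2.16 and 0.940, so both were over 2 times the MyoCre mean in K15SKO 1 and K15SKO 2. The annotated Rtp4 gene overlaps Masp1 on the opposite strand and Gm45338 on the same strand, and their part in its level was not tested. Rsad2 (viperin), which makes a chain-terminating nucleotide, had ratios of 2.00, 1.22 and 0.915. Xaf1, a pro-apoptotic protein, had ratios of 1.71, 1.16 and 0.993, and Parp14 of 1.29, 1.17 and 0.884. The adjusted p of the 6 tested among these lay between 0.409 and 0.766 by limma.

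**Figure D2:**
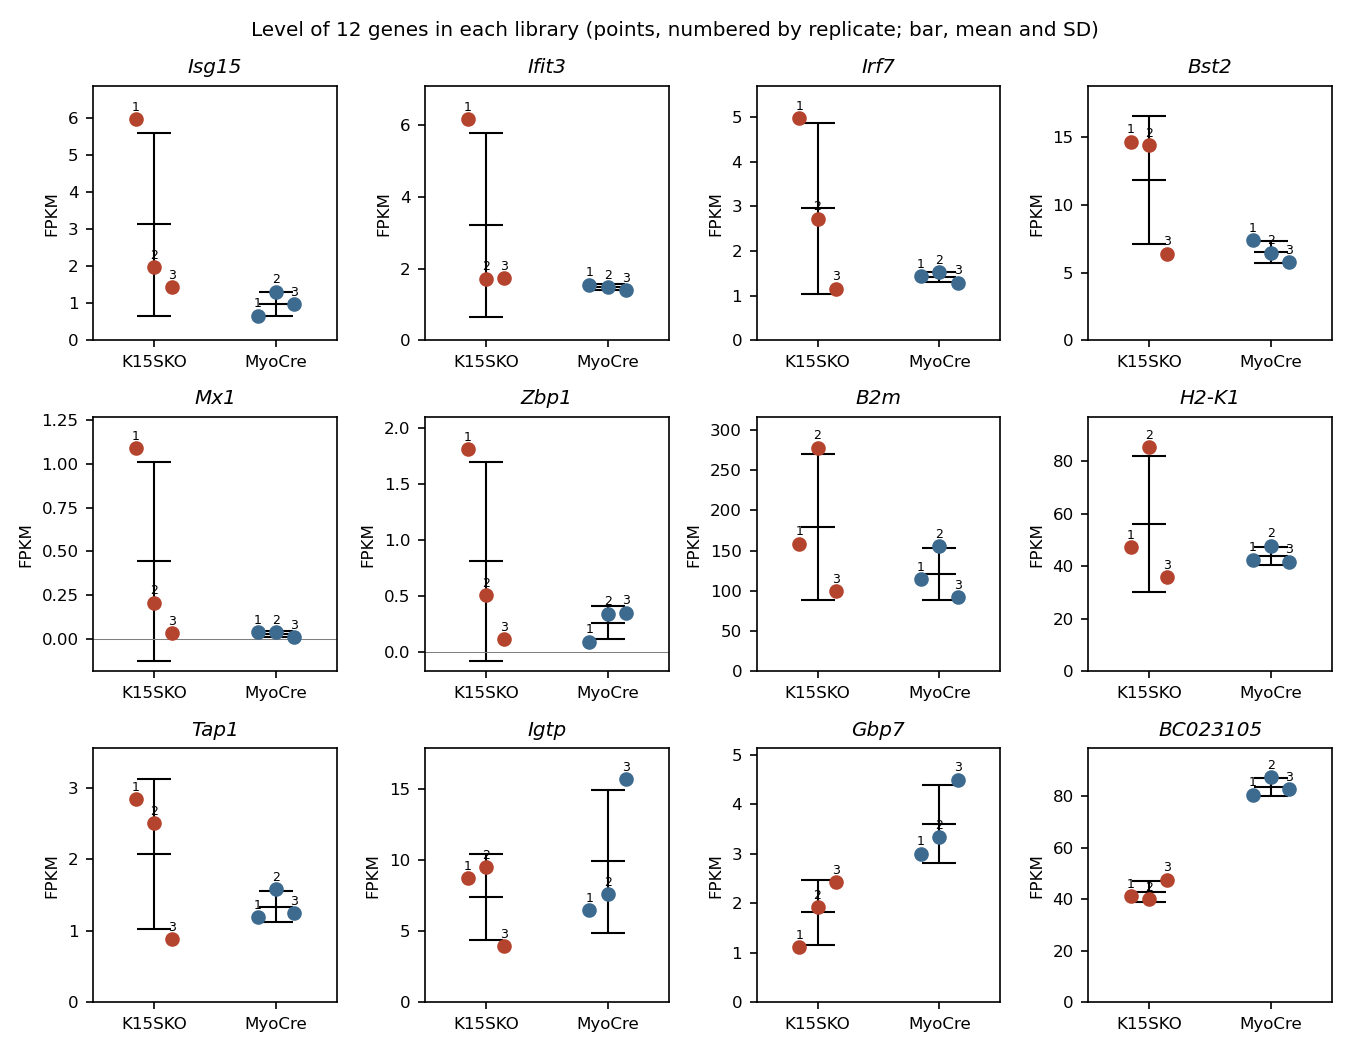
Level in FPKM (y axis, linear) of 12 genes in each K15SKO library (red) and MyoCre library (blue), numbered by replicate, with a bar at the mean and whiskers of 1 SD (n = 3 each). In the panels of Isg15, Ifit3, Mx1 and Zbp1 a single point, K15SKO 1, lies far above the others, in those of B2m and H2-K1 the highest point is K15SKO 2, and in those of Gbp7 and BC023105 all K15SKO points lie below all MyoCre points.

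The interferon-inducible GTPases, which attack the vacuoles of intracellular parasites and bacteria, did not share that pattern. Their median log2 difference was 0.00, with 3 positive and 3 negative. Gbp7 was at 1.11, 1.92 and 2.42 FPKM in K15SKO 1 to 3, compared with 3.0, 3.33 and 4.50 FPKM in MyoCre 1 to 3. Every K15SKO library was below every MyoCre library, K15SKO 1 lowest, and the log2 difference was -0.73 ± 0.22 (SE; adjusted p = 0.272 by limma). Gbp7 and a second annotated gene, Gm43802, overlap and share 637 identical bases, and Gm43802 was at 1.88, 0.749 and 1.42 FPKM in K15SKO 1 to 3 versus 0.403, 0.560 and 0.367 FPKM in MyoCre 1 to 3, so reads may have been split between them. Summed over both genes, the level was 2.99, 2.67 and 3.84 FPKM in K15SKO 1 to 3 versus 3.41, 3.89 and 4.87 FPKM in MyoCre 1 to 3, and K15SKO 3 then lay above MyoCre 1. On the FPKM of each gene alone, its neighbours on chromosome 3 overlapped between groups: Gbp2 was at 1.65 to 2.29 FPKM in K15SKO and 1.81 to 2.36 FPKM in MyoCre libraries, and Gbp3 at 0.999 to 1.76 FPKM in K15SKO and 1.07 to 1.44 FPKM in MyoCre libraries.

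The immunity-related GTPases differed from gene to gene. Igtp was at 8.71, 9.50 and 3.93 FPKM in K15SKO 1 to 3 versus 6.47, 7.62 and 15.7 FPKM in MyoCre 1 to 3, with the lowest value in K15SKO 3 and the highest in MyoCre 3. Its log2 difference was -0.36 ± 0.40 (SE; adjusted p = 0.607 by limma), or -0.01 without MyoCre 3 and -0.02 without K15SKO 3, and it overlaps Irgm2 on the same strand. Irgm1, a regulator of the other family members, was at 11.0, 7.60 and 7.44 FPKM in K15SKO 1 to 3, compared with 7.16, 7.46 and 8.19 FPKM in MyoCre 1 to 3. Iigp1, an effector GTPase, was at 2.37, 8.82 and 1.15 FPKM in K15SKO 1 to 3 versus 2.49, 3.69 and 2.10 FPKM in MyoCre 1 to 3, so that K15SKO 2 alone was high. The log2 difference of Iigp1 was 0.16 ± 0.54 (SE; adjusted p = 0.870 by limma), or -0.46 without K15SKO 2.

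The pseudogene BC023105, annotated as processed and so a copied transcript without a coding role here, gave the clearest separation. It was at 41.3, 39.9 and 47.6 FPKM in K15SKO 1 to 3 versus 80.6, 87.2 and 82.8 FPKM in MyoCre 1 to 3, or 42.9 ± 4.10 FPKM in K15SKO and 83.5 ± 3.40 FPKM in MyoCre libraries (SD, n = 3 each). The 3 K15SKO libraries were close together and well below the MyoCre libraries, and the log2 difference was -0.95 ± 0.11 (SE). Its unadjusted p was 0.000107 by limma and its adjusted p over 11607 genes was 0.153. It is 94.4% identical over 1215 bases to Gm4841, an interferon-inducible GTPase gene of the Iigp1 family, and reads may have been split between them. Summed with Gm4841, the level was 47.4, 47.3 and 48.4 FPKM in K15SKO 1 to 3, compared with 82.6, 93.8 and 92.5 FPKM in MyoCre 1 to 3, and the groups still did not overlap. Over the 17 alternative settings its adjusted p lay between 0.00532 and 0.581 by limma.

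All 6 genes of MHC class I presentation had a positive log2 difference, with a median of 0.24, and B2m, H2-K1 and H2-D1 were the most abundant protein-coding members. B2m, the light chain of every class I molecule, was at 159, 278 and 99.7 FPKM in K15SKO 1 to 3 versus 115, 156 and 92.5 FPKM in MyoCre 1 to 3. K15SKO 2 was highest, K15SKO 1 was just above MyoCre 2, and K15SKO 3 was within the MyoCre range. The means were 179 ± 90.5 FPKM in K15SKO and 121 ± 31.9 FPKM in MyoCre libraries (SD, n = 3 each), with a log2 difference of 0.47 ± 0.39 (SE; adjusted p = 0.50 by limma), or 0.09 without K15SKO 2.

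The heavy chains differed from each other. H2-K1 was at 47.3, 85.2 and 35.9 FPKM in K15SKO 1 to 3 versus 42.5, 47.8 and 41.7 FPKM in MyoCre 1 to 3, and its log2 difference of 0.25 ± 0.30 (SE; adjusted p = 0.637 by limma) became -0.09 without K15SKO 2. H2-D1 was at 50.7, 52.7 and 35.1 FPKM in K15SKO 1 to 3, compared with 39.9, 44.9 and 35.4 FPKM in MyoCre 1 to 3, with K15SKO 1 and K15SKO 2 alike. These genes are 91.3% identical to each other over 1050 bases, and 90.1% of 415 aligned bases of H2-D1 match H2-Q10, a class I gene known for its expression in liver. H2-Q10 was at 1.85, 85.6 and 0.431 FPKM in K15SKO 1 to 3 versus 3.47, 6.89 and 2.34 FPKM in MyoCre 1 to 3, so the library with the highest H2-K1 and B2m was also the library with the highest liver genes. The part of the liver genes in those values was not tested.

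The peptide transport genes had their highest values in K15SKO 1. Tap1, which with Tap2 pumps peptides into the endoplasmic reticulum, was at 2.84, 2.51 and 0.885 FPKM in K15SKO 1 to 3 versus 1.19, 1.58 and 1.25 FPKM in MyoCre 1 to 3. K15SKO 1 and K15SKO 2 were above and K15SKO 3 below the MyoCre range, and the log2 difference was 0.33 ± 0.29 (SE; adjusted p = 0.517 by limma). Tapbp (tapasin), which holds class I molecules at the transporter, was at 18.5, 16.3 and 10.2 FPKM in K15SKO 1 to 3, compared with 13.1, 12.9 and 11.1 FPKM in MyoCre 1 to 3. Tap2 spanned a narrower range, at 4.12, 3.59 and 2.65 FPKM in K15SKO 1 to 3 versus 3.06, 3.20 and 2.78 FPKM in MyoCre 1 to 3.

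**Figure D3:**
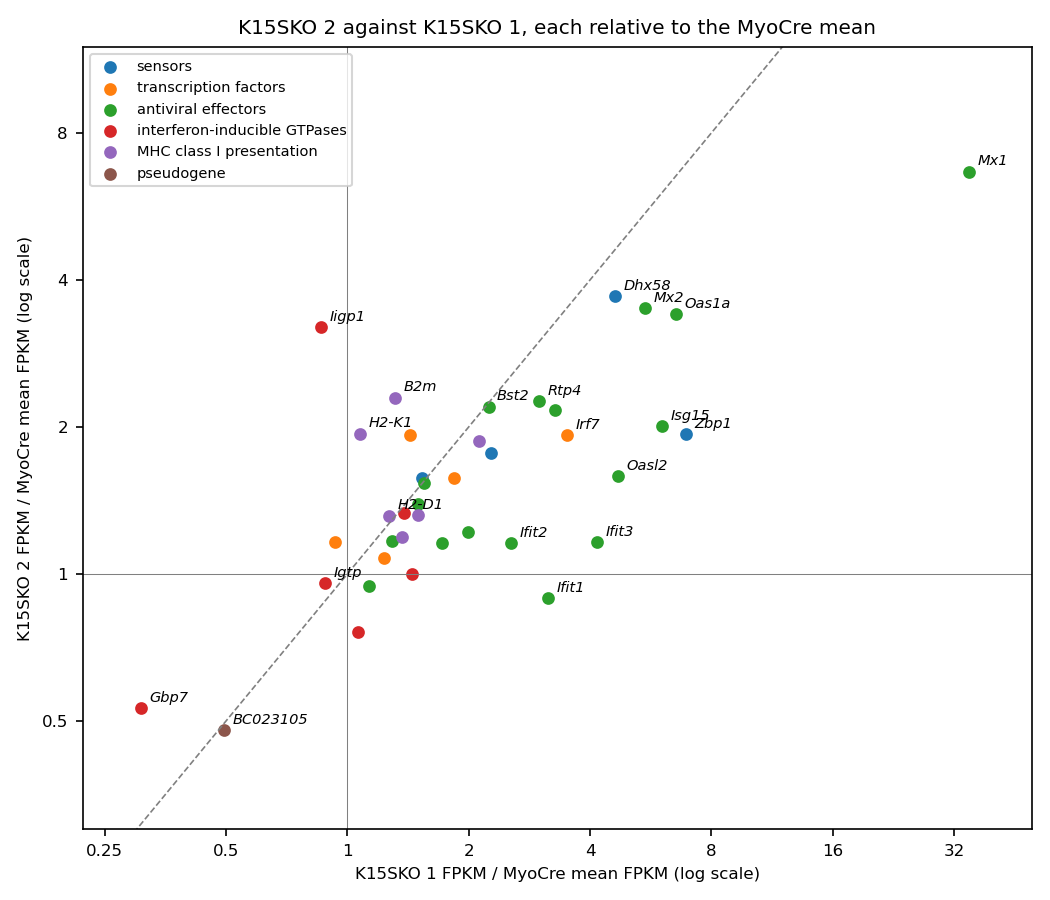
For each of the 39 genes, coloured by role, the K15SKO 1 level (x axis) and the K15SKO 2 level (y axis) are given as ratios to the MyoCre mean on log scales, with equal ratios on the dashed line. Effectors such as Mx1 (34.9 and 6.67) and Ifit1 (3.15 and 0.892) lie right of that line, and Iigp1 (0.860 and 3.20), B2m (1.31 and 2.30) and H2-K1 (1.08 and 1.94) lie above it.

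Libraries with high interferon genes also had high macrophage markers. The 16 macrophage markers in the table summed to 387, 222 and 45.0 FPKM in K15SKO 1 to 3 versus 59.3, 58.7 and 48.1 FPKM in MyoCre 1 to 3, or 6.99, 4.02 and 0.813 times the MyoCre mean. Counted over 17 rows, as Itgam is on 2 of them, they were above every MyoCre library for 17 rows in K15SKO 1, 15 in K15SKO 2 and 1 in K15SKO 3. Among all rows of the table, 36.6%, 36.8% and 29.9% were. Cd68, a lysosomal protein of macrophages, was at 43.8, 43.6 and 1.24 FPKM in K15SKO 1 to 3, compared with 0.895, 1.45 and 1.11 FPKM in MyoCre 1 to 3. Its ratios to the MyoCre mean, 38.1 in K15SKO 1 and 37.9 in K15SKO 2, were the highest of the 11 markers tested. The others tested ran from 1.65 (Cd163) to 11.7 (Mpeg1) in K15SKO 1 and from 0.865 (Cd163) to 9.05 (Mpeg1) in K15SKO 2. Cd163 was below every MyoCre library in K15SKO 2. For the summed macrophage markers, K15SKO 1 was highest and K15SKO 2 next, as for the summed sensors and effectors. Summed MHC class I presentation genes were instead highest in K15SKO 2, and summed GTPases in MyoCre 3. The part of macrophage RNA in the levels of the members was not tested.

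Markers of other cell types followed that order of libraries to differing degrees. The 16 lymphocyte and natural killer cell markers summed to 0.858, 0.995 and 0.657 FPKM in K15SKO 1 to 3 versus 0.435, 1.17 and 0.485 FPKM in MyoCre 1 to 3, and in each library 3 to 10 of them were at 0. The 9 dendritic cell markers summed to 4.78, 4.13 and 2.90 FPKM in K15SKO 1 to 3 versus 2.97, 2.91 and 3.24 FPKM in MyoCre 1 to 3. K15SKO 1 was again highest and K15SKO 2 next, at 1.57 and 1.36 times the MyoCre mean. Of the 9, 7 were above every MyoCre library in K15SKO 1, 4 in K15SKO 2 and 2 in K15SKO 3. Over all rows of the table these shares were 36.6%, 36.8% and 29.9%. The counts in K15SKO 2 and K15SKO 3 were thus not far from background. The 12 endothelial markers ran the other way, at 0.602, 0.738 and 1.21 times the MyoCre mean in K15SKO 1 to 3. Markers of adipocytes were low in all 3 K15SKO libraries, at 54.6, 30.3 and 36.3 FPKM over 7 genes, against 203, 485 and 174 FPKM in MyoCre 1 to 3. The part of none of these cell types in the levels of the interferon genes was tested.

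**Figure D4:**
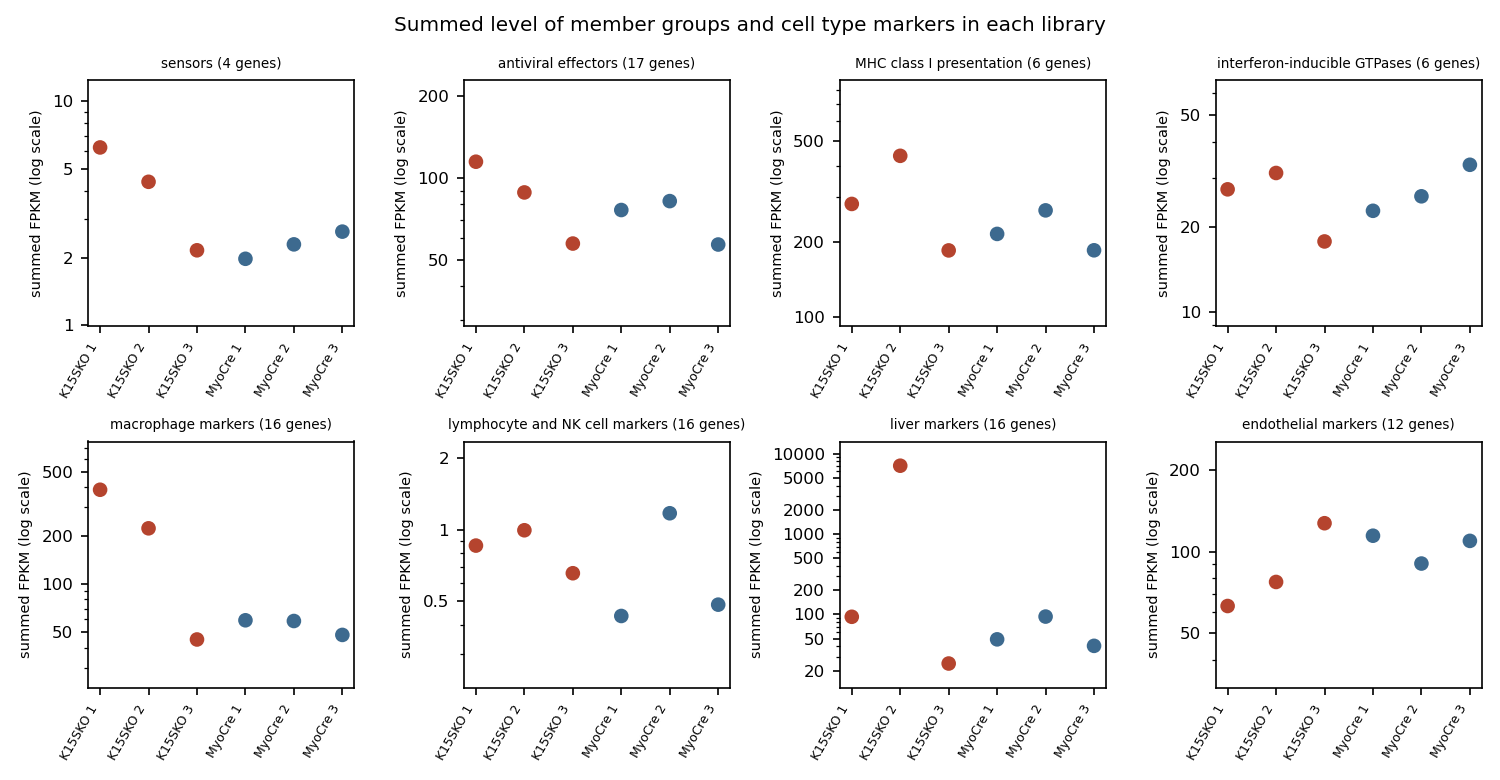
Summed FPKM (y axis, log scale) of 4 groups of interferon genes in the upper row and of 4 sets of cell type markers in the lower row, for each K15SKO library (red) and MyoCre library (blue). Sensors and macrophage markers both had K15SKO 1 highest (6.23 and 387 FPKM) and K15SKO 2 next (4.38 and 222 FPKM), and the summed liver markers were highest in K15SKO 2 (7080 FPKM). Summed MHC class I presentation genes were highest in K15SKO 2 (438 FPKM), and summed GTPases in MyoCre 3 (33.3 FPKM). Most of the liver marker sum in each MyoCre library was Trf and Cyp2e1.

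Upstream of the members, a list of 10 interferon ligands and receptors also held the interleukin gene Il15. Of these 10, 7 were in the table and 6 were tested, Il15 among them, with 0 called by limma and 0 at an unadjusted p under 0.05. Among all genes tested, 8.43% were higher and 8.12% lower at the unadjusted threshold. Ifng, the interferon of T and natural killer cells, was at 0, 0.0255 and 0 FPKM in K15SKO 1 to 3, compared with 0, 0.0372 and 0.0293 FPKM in MyoCre 1 to 3. The receptor chains were present throughout, with the 4 smallest unadjusted p for Il10rb, Ifngr1, Ifnar2 and Ifngr2 and adjusted p of 0.323, 0.336, 0.563 and 0.565 by limma. Ifngr1, the ligand-binding chain for interferon-gamma, was at 14.0, 9.96 and 13.2 FPKM in K15SKO 1 to 3, with 14.6 to 17.1 FPKM in MyoCre libraries. Il10rb, shared by the receptors for interferon-lambda and interleukin-10, was at 4.50, 3.33 and 3.34 FPKM in K15SKO 1 to 3, with 2.66 to 3.07 FPKM in MyoCre libraries.

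Of the interferon signalling list, 15 symbols were in the table and 14 were tested, with 0 called by limma, 1 higher and 1 lower at an unadjusted p under 0.05. Among all genes tested, 8.43% were higher and 8.12% lower, so these counts were near background. Irf5, a transcription factor abundant in macrophages, was at 14.9, 5.82 and 5.01 FPKM in K15SKO 1 to 3 versus 2.60, 2.68 and 2.33 FPKM in MyoCre 1 to 3. It was above the MyoCre range in all 3 K15SKO libraries, with a log2 difference of 1.30 ± 0.36 (SE; adjusted p = 0.272 by limma). The kinase Jak2, which carries the interferon-gamma signal, was at 9.22, 9.48 and 17.6 FPKM in K15SKO 1 to 3 versus 19.4, 17.6 and 17.6 FPKM in MyoCre 1 to 3, with a log2 difference of -0.61 ± 0.24 (SE; adjusted p = 0.293 by limma). Socs1, which shuts the signal down, ranged most within a group, at 1.49, 0.661 and 0.0804 FPKM in K15SKO 1 to 3, compared with 0.249, 15.6 and 35.7 FPKM in MyoCre 1 to 3.

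Other interferon-induced genes were mixed: 28 of 44 in the table were tested, 0 were called by limma, and 5 were higher and 4 lower at an unadjusted p under 0.05. The shares of all genes tested were 8.43% and 8.12%. Eif2ak2 (PKR), a kinase that halts translation on double-stranded RNA, was at 2.95, 2.28 and 1.91 FPKM in K15SKO 1 to 3 versus 1.02, 1.26 and 1.37 FPKM in MyoCre 1 to 3, with a log2 difference of 0.60 ± 0.16 (SE; adjusted p = 0.269 by limma). Parp10, a mono-ADP-ribosyltransferase, was at 3.25, 3.19 and 2.09 FPKM in K15SKO 1 to 3, with 1.55 to 1.72 FPKM in MyoCre libraries. Both were above the MyoCre range in every K15SKO library, K15SKO 3 included. Irgm2, next to Igtp, was at 6.16, 6.81 and 2.04 FPKM in K15SKO 1 to 3 versus 8.90, 9.83 and 19.7 FPKM in MyoCre 1 to 3, a log2 difference of -1.24 ± 0.44 (SE; adjusted p = 0.281 by limma). Ifi27l2a, a small membrane protein, was at 42.7, 20.2 and 13.7 FPKM in K15SKO 1 to 3, compared with 52.8, 136 and 41.3 FPKM in MyoCre 1 to 3, which overlapped in 1 library.

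Of the other antigen presentation genes, 23 of 25 were tested, with a median log2 difference of 0.33 and 19 positive values. The median ratio of these 23 to the MyoCre mean was 1.62, 1.71 and 0.868 in K15SKO 1 to 3. None was called by limma, and 3 were higher and 0 lower at an unadjusted p under 0.05. Over all genes tested these shares were 8.43% and 8.12%. Psme2, a subunit of the PA28 proteasome activator, was at 12.5, 11.9 and 7.42 FPKM in K15SKO 1 to 3 versus 7.0, 6.62 and 6.74 FPKM in MyoCre 1 to 3. Its partner Psme1 was instead highest in K15SKO 3, at 25, 21.8 and 29.5 FPKM in K15SKO 1 to 3 versus 19.0, 20.2 and 19.3 FPKM in MyoCre 1 to 3. Both subunits were above the MyoCre range in all 3 K15SKO libraries, with adjusted p of 0.279 for Psme2 and 0.284 for Psme1 by limma. The nonclassical class I gene H2-T23 was at 8.95, 16.7 and 5.17 FPKM in K15SKO 1 to 3, compared with 4.99, 3.82 and 4.34 FPKM in MyoCre 1 to 3, highest in K15SKO 2 as H2-K1 was. H2-M3, which presents formylated bacterial peptides, was at 1.13 to 1.56 FPKM in K15SKO and 0.741 to 1.06 FPKM in MyoCre libraries. Of the MHC class II genes, Cd74, the invariant chain, was at 66.1, 59.8 and 22.7 FPKM in K15SKO 1 to 3 versus 31.1, 31.2 and 28.1 FPKM in MyoCre 1 to 3. Class II molecules are mostly made by professional antigen-presenting cells, and Cd74 was highest in K15SKO 1, next in K15SKO 2 and lowest in K15SKO 3, as the summed macrophage markers were.

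**Figure D5:**
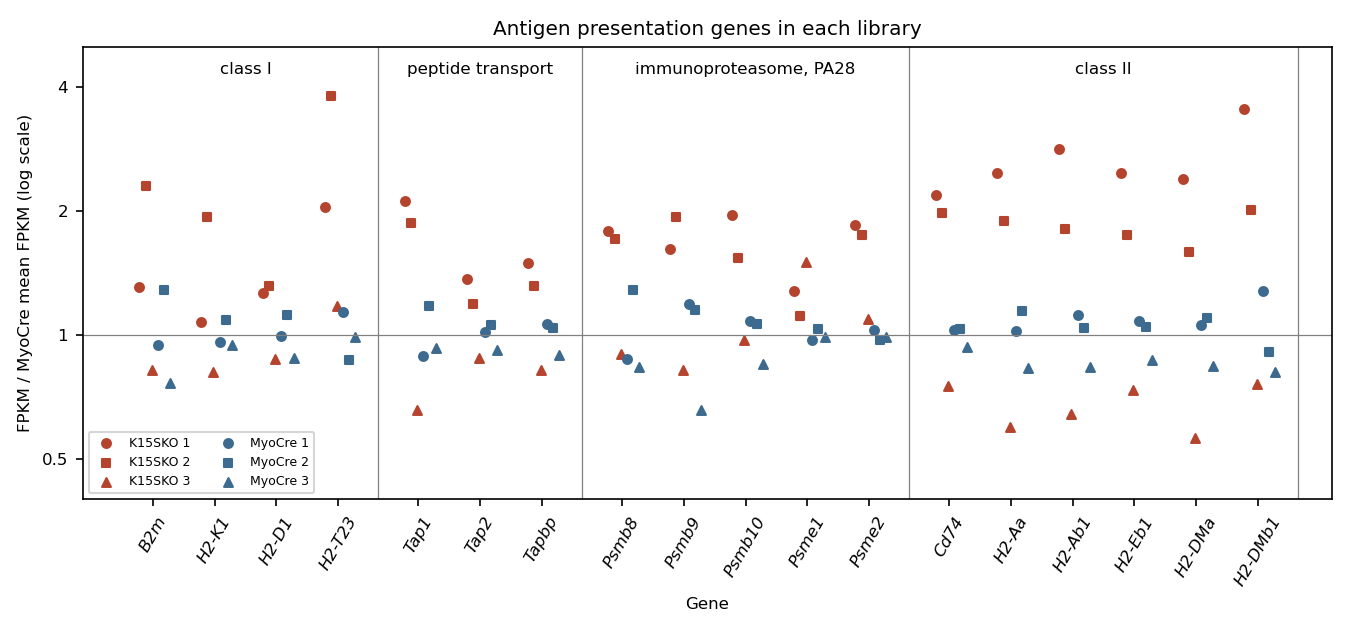
Level relative to the MyoCre mean (y axis, log scale) of antigen presentation genes, grouped by role along the x axis, in each K15SKO library (red) and MyoCre library (blue), with the marker shape giving the replicate. K15SKO 1 and K15SKO 2 lie above 1 for all genes shown, while K15SKO 3 lies below 1 for all but H2-T23, Psme1 and Psme2. The genes shown are a chosen part of those listed. Among those not shown, H2-Q6, H2-Q7, Rfxap, Erap1 and H2-T22 were below 1 in K15SKO 1 (0.591, 0.598, 0.641, 0.859 and 0.935).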

How the data were processed

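Quadriceps total RNA was purified on Roche columns and made into Illumina libraries, per the labels' protocols. The authors deposited FPKM for 23314 genes, made with STAR, Cufflinks and Cuffdiff on mm10, per the submitters' processing notes. The versions and the strandedness were not given in the sources used here, and the unit rests on the tools named and on the values. There were 0 columns of no sample. FPKM keeps no counts, so the counting error of low genes cannot be weighed.

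The 11607 genes averaging 1 FPKM or more entered limma 3.58.1 (R 4.3.3), on log2 of FPKM with a pseudocount of 1 (eBayes with trend, two-sided, Benjamini-Hochberg over all genes tested). Such log2 differences understate changes of low genes. The fit was tested on simulated data with the same noise in both groups, taken from the MyoCre libraries, and changes larger than any member's. The K15SKO libraries differed more among themselves, so that test does not cover their spread. In addition, 17 alternatives were run. An exact permutation test of 3 against 3 cannot go below p = 0.1. The members and lists were chosen with earlier results of these data known. All 39 members are accounted for, and in each role the 5 with the highest mean, those with an unadjusted p under 0.05, and in each of the 4 other interferon and antigen presentation lists the 4 with the smallest p are named. The values of 1 such gene are not reported here. Cell type markers are given as sums, and further named genes were chosen after their values were seen. Sequences and motifs are from RefSeq (GRCm38.p6), and gene positions and classes from GENCODE on GRCm38. Copies were found with BLAST 2.17.0 among transcripts at 90% identity over 300 bases.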

Additional observations from a re-analysis of the deposited data

How the results depend on the processing

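Over all genes, limma called 6 as described, 3 without a filter on low values, 2398 with array weights, 0 without genes at 0 in every library of a group (1930 at an unadjusted p under 0.05), 3 with the replicate number as a block, and 3 to 2743 when 1 library was left out. The highest came without K15SKO 3, and leaving out MyoCre 1 or MyoCre 2 gave 3 and K15SKO 1 or K15SKO 2 gave 4. Of the members, 2 had an unadjusted p under 0.05 as described, 4 with a pseudocount of 0.1, 1 of those with a mean of at least 5 FPKM, 14 with array weights, 3 with the replicate block, and 1 to 16 when 1 library was left out (16 without K15SKO 3 and 1 without MyoCre 3). Of 11607 genes tested, limma put 1920 under that p as described and 2022 with a pseudocount of 0.1. It put 4790 there with array weights and 4778 without K15SKO 3, so the rise was not limited to the members. With array weights Ifi35, Bst2, BC023105 and Gbp7 passed the adjusted threshold by limma (0.0364, 0.0252, 0.0165 and 0.0422). The median log2 difference of the members stayed positive in all 17 alternatives, between 0.08 (without K15SKO 1) and 0.39 (without K15SKO 3). Array weights reversed the log2 difference of Irf1 to 0.0831, Irf9 to 0.16 and Igtp to 0.0575. With 1 library left out, the sign turned for Ifit1 (-0.14 to 0.48), Irgm1 (-0.0124 to 0.24), Iigp1 (-0.46 to 0.64), H2-K1 (-0.0901 to 0.52), Ifi27 (-0.38 to 0.0932), Irf1 (-0.26 to 0.0482) and Irf9 (-0.18 to 0.17). The cause was not tested. Same-numbered libraries deviated together by correlations of 0.00, 0.09 and 0.09, so the numbers do not pair the libraries, although 5 of the 6 libraries, all but MyoCre 1, correlated best with their own number, which is a hint from the data and not from the design. Absolute depth is unknown, and members under 1 FPKM carry the largest counting error.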

Other observations

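MyoCre 3 was itself high for some interferon-gamma regulated genes, named here after their values were seen. The member Igtp, at 15.7 FPKM, and the other genes Socs1, at 35.7 FPKM, Irgm2, at 19.7 FPKM, and Gbp5, at 3.0 FPKM, each had their highest value there. Igtp and Irgm2 overlap on the same strand. Other genes of this kind went the other way. Iigp1, Gbp2, Gbp3, Gbp4 and Cxcl9 had their lowest MyoCre value in MyoCre 3, at 2.10, 1.81, 1.075, 1.305 and 0.303 FPKM. Gbp5, a guanylate-binding protein of inflammasome responses, was at 0.740, 0.702 and 1.02 FPKM in K15SKO 1 to 3 versus 1.26, 1.31 and 3.0 FPKM in MyoCre 1 to 3. The chemokine Cxcl10, which attracts activated T cells, was highest in K15SKO 1 and next in K15SKO 2, at 12.5, 5.78 and 0.913 FPKM in K15SKO 1 to 3, compared with 0.731, 0.649 and 0.994 FPKM in MyoCre 1 to 3, with an adjusted p of 0.295 by limma.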
